A study of Mus musculus with 6 samples.

Results

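The endoplasmic reticulum (ER) folding and degradation machinery was taken as a list of 32 genes, all of which had at least 1 probe set on the array. A gene was included when a probe set carried its symbol alone in the platform annotation, and the brightest of its probe sets over the 6 arrays stood for it. Ero1l is listed there under its current symbol, Ero1a. The 32 genes were covered by 72 probe sets, out of 22626 probe sets and 12393 genes in all. The arrays came from liver tumours of 3 Alb/AEG-1 mice and 3 WT mice, all male, one array per animal. Every mouse, transgenic or not, had received 1 intraperitoneal dose of N-nitrosodiethylamine, a hepatocarcinogen, at 10 µg per g body weight when 14 days old, and tumours were taken at 28 weeks. Alb/AEG-1 mice carry a transgene for AEG-1, which Mtdh encodes in the mouse, introduced as a fragment of 5.3 kb from a construct of that name, and the labels do not spell out its promoter or say how many founder lines the animals came from. The strain background is recorded as CD-1, while the injected embryos were from B6CBAF1/J parents. The comparison asks how tumours with the transgene differ from tumours without it.

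Secreted and membrane proteins enter the ER through the Sec61 channel and fold there with the help of the Hsp70 chaperone BiP (Hspa5), the Hsp90 family member Grp94 (Hsp90b1), the lectins calnexin and calreticulin, and protein disulfide isomerases. Proteins that do not fold are sent back to the cytosol and degraded, through a membrane complex built on the ubiquitin ligase Hrd1 (Syvn1) and its partner Sel1l. When unfolded protein accumulates, the sensors IRE1 alpha (Ern1), ATF6 and PERK (Eif2ak3) start the unfolded protein response, in which ATF6 and spliced XBP1 raise transcription of the folding and degradation genes. Hepatocytes secrete most plasma proteins and carry a large ER.

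Many of these genes are known to be controlled through the ER stress response element (ERSE), which is read as CCAAT, 9 bases of any kind and CCACG, or through the shorter ERSE-II, read as ATTGG, 1 base of any kind and CCACG. Both were searched on both strands of the RefSeq promoter entries of GRCm38.p6, which run from 250 bases before to 50 bases after each start site. An entry was found for 26 of the 32 genes. An ERSE was present in 8 of these 26 (Hspa5, Hsp90b1, Calr, Canx, Creld2, Dnajc3, Pdia6 and Syvn1), against 0.119% of 32851 promoters, and Hsp90b1 held 2. An ERSE-II was present in Dnajb11 and Herpud1, against 0.0365% of promoters. The UPRE letters TGACGTGG matched only in Txndc5 (0.676% of promoters), and CCACG alone, which lies inside both elements, matched in 21 of the 26 (32.8% of promoters). A gene counted as matched when any of its entries matched, while the percentages are of single entries, so the 2 are not strictly alike. Derl2 and Txndc5 have several entries, and not all of them matched. The matches are shown because they are the shared letters of these genes outside the expression data. Each is written 5′ to 3′ on the strand where it reads as above, with fixed letters in capitals, and coordinates are those of GRCm38.p6. All lie before the start site except that of Dnajb11.
Hspa5, chr2:34772025-34772043: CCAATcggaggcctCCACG
Calr, chr8:84847075-84847093: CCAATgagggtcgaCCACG
Canx, chr11:50325800-50325818: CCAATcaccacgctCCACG
Creld2, chr15:88819520-88819538: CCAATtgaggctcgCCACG
Dnajc3, chr14:118937827-118937845: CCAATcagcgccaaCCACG
Hsp90b1, chr10:86705533-86705551: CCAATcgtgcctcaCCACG
Hsp90b1, chr10:86705638-86705656: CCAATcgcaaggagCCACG
Pdia6, chr12:17266491-17266509: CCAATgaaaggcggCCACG
Syvn1, chr19:6046532-6046550: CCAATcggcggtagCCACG
Herpud1, chr8:94386377-94386387: ATTGGgCCACG
Dnajb11, chr16:22857852-22857862: ATTGGcCCACG

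The 250 bases before the start are shown for Hspa5, the most studied ERSE gene, for Creld2, which had the widest range over the 6 arrays of all 32 genes, and for Pdia3, which had the largest difference between genotypes and no match to ERSE, ERSE-II or CCACG. Capitals mark the fixed letters of an ERSE. In Creld2 the element lies on the opposite strand, so its letters appear reversed and complemented.
Hspa5, chr2:34771840-34772089, plus strand: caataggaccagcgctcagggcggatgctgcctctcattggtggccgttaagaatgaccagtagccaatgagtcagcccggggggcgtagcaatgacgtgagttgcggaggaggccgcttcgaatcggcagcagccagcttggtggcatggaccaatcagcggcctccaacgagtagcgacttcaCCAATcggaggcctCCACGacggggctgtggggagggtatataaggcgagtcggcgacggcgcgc
Creld2, chr15:88819396-88819645, plus strand: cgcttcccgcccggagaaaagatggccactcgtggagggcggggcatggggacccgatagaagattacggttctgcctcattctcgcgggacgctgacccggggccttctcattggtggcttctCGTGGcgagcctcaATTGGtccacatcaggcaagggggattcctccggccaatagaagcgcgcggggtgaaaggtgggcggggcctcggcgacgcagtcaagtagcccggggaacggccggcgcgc
Pdia3, chr2:121413652-121413901, plus strand: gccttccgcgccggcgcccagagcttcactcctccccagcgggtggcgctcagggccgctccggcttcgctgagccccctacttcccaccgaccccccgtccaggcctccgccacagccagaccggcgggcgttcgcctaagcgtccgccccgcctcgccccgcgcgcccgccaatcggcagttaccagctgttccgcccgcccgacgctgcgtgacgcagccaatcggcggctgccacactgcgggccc

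Levels below are log2 values from RMA, and each difference is Alb/AEG-1 minus WT on that scale, with the standard error (SE) of the limma fit. None of the 32 genes passed an adjusted p of 0.05 over all 22626 probe sets, where 1 probe set was called higher (0.00442%) and 0 lower (0.0%). A positive difference was found in 29 of 32, against 47.8% of all genes. The list is bright, with 31 of 32 genes at or above the median level of 6.29, and among all genes at or above that level 60.4% were positive. The median difference of the list was 0.17, against -0.01 over all genes and 0.04 over the brighter genes. At an unadjusted limma p below 0.05 there were 4 higher (Pdia3, Pdia6, Pdia4 and Eif2ak3), against 3.86% of all genes and 5.1% of the brighter ones, and 0 lower, against 4.47% of all genes. The groups did not overlap in 3 genes, each higher in Alb/AEG-1 tumours, against 6.77% of all genes and 9.57% of the brighter ones, so this count lies near the background. In the other direction there were 0, against 8.31% of all genes.

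**Figure D1:**
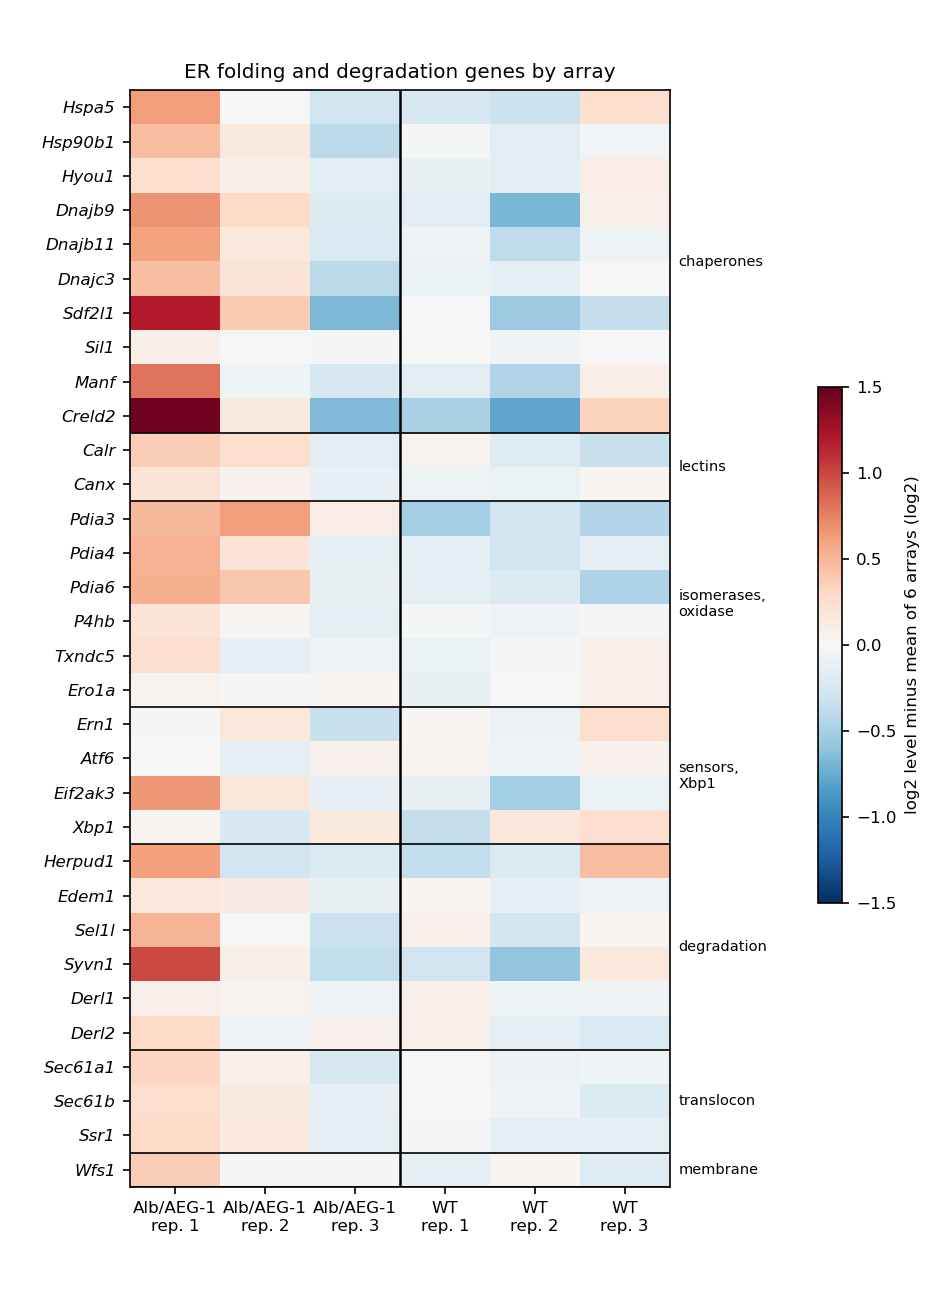
Each row is a gene and each column an array, coloured by the gene's log2 level minus its mean over the 6 arrays, with Alb/AEG-1 arrays left of WT arrays and rows grouped by role. The column of Alb/AEG-1 replicate 1 is the highest for 27 of 32 genes, while Alb/AEG-1 replicate 3 resembles the WT columns or lies below them in most rows.

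The disulfide isomerases held 3 of the 4 genes with an unadjusted p below 0.05, and the 3 genes with separated groups. Pdia3 (ERp57), an isomerase that works with calnexin and calreticulin on glycoproteins, was at 10.92, 11.06 and 10.54 in Alb/AEG-1 tumours, against 9.92, 10.14 and 9.99 in WT tumours. The lowest Alb/AEG-1 value lay above the highest WT value. Its means were 10.84 ± 0.27 in Alb/AEG-1 and 10.02 ± 0.11 in WT tumours (SD, n = 3 each), a difference of 0.82 ± 0.14 log2 or 1.77-fold (adjusted p = 0.467, unadjusted p = 0.000551). Pdia3 has a single probe set here. Its difference stayed between 0.71 and 0.97 when any array was left out, and its unadjusted p was below 0.05 in all 16 alternatives tried.

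Pdia6, which also dampens sensor signalling, was at 11.06, 10.93 and 10.42 in Alb/AEG-1 tumours, against 10.38, 10.32 and 10.06 in WT tumours. The groups were separated by 0.05 log2 only. The difference was 0.55 ± 0.17 (adjusted p = 0.596), and a dim second probe set differed by 0.24 ± 0.20. Without Alb/AEG-1 replicate 1, Pdia6 differed by 0.43 and Pdia4 by 0.23, and neither kept an unadjusted limma p below 0.05. Pdia6 also lost it without Alb/AEG-1 replicate 2 or WT replicate 3. Of the fits with a single array left out, Pdia4 kept it only without Alb/AEG-1 replicate 3. Pdia4 (ERp72), a large isomerase bound to BiP, was at 9.95, 9.63 and 9.30, against 9.29, 9.14 and 9.29 in WT tumours. Here the lowest Alb/AEG-1 array and the top WT arrays were 0.01 apart (difference 0.39 ± 0.16, adjusted p = 0.616). The remaining oxidative folding genes differed by less than their SE. P4hb (PDI), the founding isomerase, differed by 0.06 ± 0.10, Txndc5 (ERp46) by 0.03 ± 0.12, and Ero1l (Ero1a), the oxidase that recharges PDI, by 0.03 ± 0.09. A dimmer Ero1a probe set differed by -0.23 ± 0.11.

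Among the chaperones all 10 differences were positive, from 0.04 to 0.61, and 0 passed either threshold. Hspa5, whose product binds unfolded chains and holds the sensors inactive, was at 13.06, 12.44 and 12.14 in Alb/AEG-1 tumours, against 12.19, 12.11 and 12.67 in WT tumours. The groups overlapped, with 1 array of each genotype above the rest of its group (difference 0.22 ± 0.24, adjusted p = 0.795). Creld2, a secreted ER stress-inducible protein, had the same shape with a wider range, at 10.65, 9.33 and 8.53, against 8.71, 8.41 and 9.54 in WT tumours. Its difference of 0.61 ± 0.52 (adjusted p = 0.736) became 0.04 without Alb/AEG-1 replicate 1 and 1.10 without Alb/AEG-1 replicate 3.

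Sdf2l1, a partner of the ER Hsp40 proteins, was at 9.57, 8.77 and 7.71 in Alb/AEG-1 tumours, against 8.38, 7.84 and 8.02 in WT tumours. Alb/AEG-1 replicates held both its top and its bottom value (difference 0.60 ± 0.42, adjusted p = 0.691). Dnajb9 (ERdj4), a J protein that directs BiP to misfolded clients, was at 10.97, 10.60 and 10.10, against 10.14, 9.62 and 10.38 (difference 0.51 ± 0.26, adjusted p = 0.637). Dnajb11 (ERdj3), another J protein, was at 9.82, 9.37 and 8.98, against 9.14, 8.83 and 9.14 (0.35 ± 0.21). Manf, a secreted protein that binds BiP, was at 11.78, 10.90 and 10.73, against 10.80, 10.51 and 11.07 (0.34 ± 0.27). In all 3 the Alb/AEG-1 order was replicate 1, then 2, then 3, and the groups overlapped.

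Hsp90b1 was at 12.27, 11.95 and 11.41 in Alb/AEG-1 tumours, against 11.79, 11.65 and 11.77 in WT tumours, and Alb/AEG-1 replicate 3 was the lowest array (difference 0.14 ± 0.20). A second Hsp90b1 probe set differed by -0.04 ± 0.26. Dnajc3 (p58IPK), a co-chaperone of BiP, was at 11.24, 10.99 and 10.39, against 10.69, 10.65 and 10.80 (0.16 ± 0.20). Its 5 probe sets differed by -0.15 to 0.52. Hyou1 (Grp170) differed by 0.11 ± 0.13 and Sil1 by 0.04 ± 0.08. Both are nucleotide exchange factors for BiP, and Sil1 spanned only 0.16 log2 over the 6 arrays.

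The lectin chaperones differed by 0.31 ± 0.16 in Calr (adjusted p = 0.638) and 0.09 ± 0.11 in Canx. Calr, which encodes the soluble calreticulin, was at 12.26, 12.15 and 11.73 in Alb/AEG-1 tumours, against 11.94, 11.70 and 11.56 in WT tumours, so that only Alb/AEG-1 replicate 3 overlapped the WT arrays. Its dimmer probe sets differed by 0.34 ± 0.16 and 0.23 ± 0.16. Canx, which encodes the membrane-bound calnexin, spanned 0.34 log2 in all, and its dimmer probe sets differed by 0.02 ± 0.13 and -0.01 ± 0.09.

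The sensors and Xbp1 had 1 positive and 3 negative differences, with a median of -0.04. Eif2ak3, the kinase that slows translation, was at 7.84, 7.37 and 7.07 in Alb/AEG-1 tumours, against 7.08, 6.68 and 7.09 in WT tumours, with Alb/AEG-1 replicate 3 inside the WT range (difference 0.48 ± 0.20, adjusted p = 0.618, unadjusted p = 0.0488). Its other probe sets, with mean levels of 3.82 and 3.25, differed by 0.02 ± 0.12 and -0.28 ± 0.11, and the mean over its probe sets differed by 0.07. Xbp1 was at 11.35, 11.07 and 11.46, against 10.96, 11.48 and 11.56 in WT tumours (-0.04 ± 0.18). Its highest array was a WT array and its 4 probe sets differed by -0.11 to -0.03. These values do not separate the spliced from the unspliced Xbp1 transcript. Atf6 spanned 0.22 log2 and differed by -0.04 ± 0.09. Ern1, the dimmest of the 32 genes at 5.41, differed by -0.13 ± 0.15, with -0.34 ± 0.14 and -0.15 ± 0.10 in dimmer probe sets.

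All 6 degradation genes had a positive difference, from 0.04 to 0.48, and all overlapped between the groups. Syvn1 was at 9.87, 8.97 and 8.51 in Alb/AEG-1 tumours, against 8.59, 8.29 and 9.04 in WT tumours (difference 0.48 ± 0.34, adjusted p = 0.700). Herpud1, which assembles the ligase complex, was at 11.95, 11.04 and 11.12, against 10.96, 11.12 and 11.80 (0.08 ± 0.29, adjusted p = 0.944). In both, Alb/AEG-1 replicate 1 was the highest array and WT replicate 3 the highest of its group. The Herpud1 difference was -0.21 with Alb/AEG-1 replicate 1 left out and 0.33 with WT replicate 3 left out. A second Herpud1 probe set differed by -0.01 ± 0.31. Sel1l was at 8.45, 7.93 and 7.62, against 8.01, 7.65 and 7.97 (0.12 ± 0.21). Edem1, a mannosidase-like protein that marks glycoproteins for disposal, differed by 0.11 ± 0.10. Of the retrotranslocation proteins, Derl2 differed by 0.20 ± 0.12 and Derl1 by 0.04 ± 0.09, while a dimmer Derl1 probe set differed by 0.26 ± 0.10 with separated groups.

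The translocon genes differed by 0.20 ± 0.12 in Ssr1, a subunit of the translocon-associated complex, by 0.18 ± 0.12 in Sec61b and by 0.11 ± 0.14 in Sec61a1, the channel subunits. Sec61b was at 11.20, 11.07 and 10.82 in Alb/AEG-1 tumours, against 10.93, 10.88 and 10.74 in WT tumours. Only Alb/AEG-1 replicate 3 fell among the WT arrays. The 6 Sec61a1 probe sets differed by -0.14 to 0.26. Wfs1, the ER membrane protein wolframin, was at 7.16, 6.77 and 6.76, against 6.64, 6.82 and 6.60 (0.21 ± 0.13). Over the 40 dimmer probe sets of the 32 genes, 30 had the sign of the brightest, and 1, of Eif2ak3, lay more than 0.5 log2 from it.

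**Figure D2:**
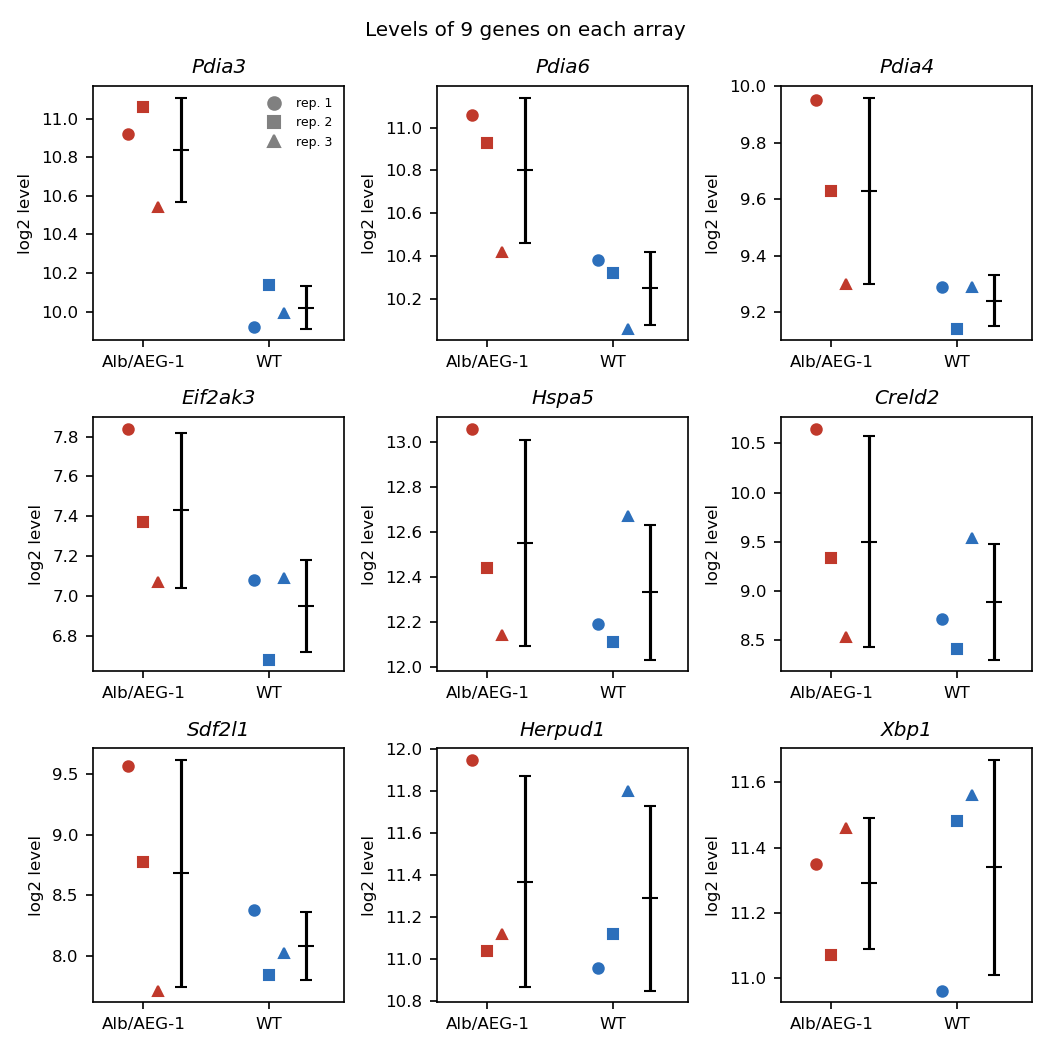
Log2 levels of 9 genes on each array, Alb/AEG-1 left (red) and WT right (blue), with 1 symbol per replicate; the bar beside each group is its mean ± SD (n = 3). Pdia3, Pdia6 and Pdia4 have separated groups, with a gap of 0.01 log2 in Pdia4, while Hspa5, Creld2 and Herpud1 have 1 high array in each group.

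The arrays within a genotype differed from each other in most of the 32 genes. Alb/AEG-1 replicate 1 was the highest of the 6 arrays in 27 of 32 genes, against 17.3% of all genes and 24.7% of the brighter ones. The 3 Alb/AEG-1 arrays stood in the order replicate 1, 2, 3 in 24 genes (16.9% of all genes), and replicate 3 was the lowest of them in 26 (35.4%). In 29 genes Alb/AEG-1 replicate 3 was at or below the highest WT array (75.6%), and in 10 it was the lowest of the 6 arrays (16.9%). Replicates have no order in the design, so these counts describe single tumours. The SD over the Alb/AEG-1 arrays exceeded that over the WT arrays in 30 of 32 genes, against 49.2% of all genes. The median SD of the list was 0.28 over Alb/AEG-1 and 0.13 over WT arrays, against 0.12 in each genotype over all genes.

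The role groups differed in how far Alb/AEG-1 replicate 1 stood out. As a median deviation from each gene's mean over 6 arrays, the chaperones stood at 0.61, 0.14 and -0.26 in Alb/AEG-1 replicates 1 to 3, against -0.11, -0.36 and 0.04 in WT replicates 1 to 3. The isomerase group stood at 0.37, 0.11 and -0.09, against -0.13, -0.13 and -0.08, and was thus even across WT arrays. The sensors and Xbp1 stood at 0.03, 0.01 and -0.02, against -0.05, -0.07 and 0.16. Among WT arrays, replicate 2 was the lowest in 21 of 32 genes, against 31.8% of all genes. WT replicate 3 exceeded replicate 2 by 1.13 in Creld2, 0.77 in Dnajb9, 0.76 in Syvn1, 0.68 in Herpud1 and 0.56 in Hspa5, and lay below it by 0.26 in Pdia6, by 0.15 in Pdia3 and by 0.14 in Calr.

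The animal numbers in the labels fall into a lower range, with Alb/AEG-1 replicates 1 and 2 and WT replicate 1, and a higher range, with Alb/AEG-1 replicate 3 and WT replicates 2 and 3. The labels do not call this a batch. Within the lower numbers the difference was positive in 30 of 32 genes (49.0% of all genes), with a median of 0.27. Within the higher numbers it was positive in 11 of 32 (48.5% of all genes), with a median of -0.04. For Pdia3 the lower range gave 1.07 and the higher range 0.47, for Pdia6 they gave 0.62 and 0.23, for Eif2ak3 0.53 and 0.19, and for Pdia4 0.51 and 0.08. The sign turned between the ranges for Creld2 (1.28 and -0.45), Syvn1 (0.83 and -0.16), Hspa5 (0.55 and -0.25) and Herpud1 (0.54 and -0.33). These values set 3 arrays against each other in each range, and the gap between the ranges was not tested. With the range as a term in limma, Pdia3 differed by 0.77 (unadjusted p = 0.00137), Pdia6 by 0.43 (unadjusted p = 0.0136), Pdia4 by 0.30 (unadjusted p = 0.0768) and Eif2ak3 by 0.36 (unadjusted p = 0.0884).

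**Figure D3:**
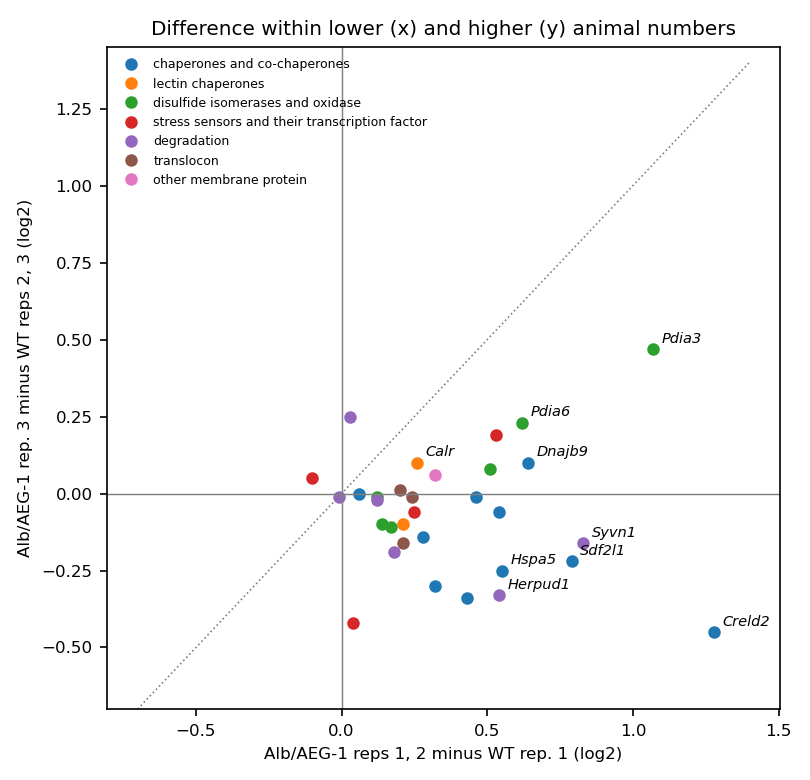
Each point is a gene, coloured by role, with its Alb/AEG-1 minus WT difference within the lower animal numbers on the x axis and within the higher numbers on the y axis (log2); the dotted line marks equal differences. Of the 32 genes, 30 lie right of 0 and 11 above 0, and Pdia3 lies farthest up.

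The counts depended on single tumours. Without Alb/AEG-1 replicate 3, 14 of 32 genes had an unadjusted limma p below 0.05, all higher (4.45% of all genes), 16 were separated (13.5% of all genes) and the median difference was 0.30, but the Alb/AEG-1 arrays left then lie only in the lower animal numbers. Without Alb/AEG-1 replicate 1 the median was 0.02, 21 genes were positive and 1 gene (Pdia3) had a p below 0.05. The difference then turned from positive to negative in Hspa5, Hsp90b1, Dnajc3, P4hb, Txndc5, Herpud1, Sel1l and Sec61a1. Ern1, Atf6 and Xbp1 were negative as with all arrays. In each of these fits 0 genes of the list passed after adjustment over all probe sets.

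The genes with an ERSE or ERSE-II match were set beside those without one. In the 10 list genes with a match the median gap between Alb/AEG-1 replicates 1 and 3 was 0.85, against 0.39 in the 16 with an entry and no match, 0.14 in the 16 measured genes outside the list with a match, and 0.00 over all measured genes with an entry. The median range over the 6 arrays was 0.97 in the list genes with a match, 0.58 in those without and 0.48 in the other genes with a match. The genes outside the list with a match thus had smaller medians than the list genes without one, and no difference between these sets was tested. The median difference between genotypes was 0.27 with a match and 0.19 without. Alb/AEG-1 replicate 1 was the highest array in 10 of 10 and in 12 of 16. These are descriptions of 26 genes that share their arrays, and a match does not show that the element is used.

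The other lists of the secretory pathway had positive medians, all below that of the 32 genes. In the COPII and ER-Golgi transport list 27 of 30 genes were positive with a median of 0.16, 2 had an unadjusted p below 0.05 and Alb/AEG-1 replicate 1 was the highest array in 22. Among all genes at or above the median level, 60.4% were positive, 5.1% were higher at that p and 24.7% were highest on that array. Preb, the exchange factor that starts COPII coats, was at 9.73, 9.65 and 9.42 in Alb/AEG-1 tumours, against 9.20, 9.25 and 9.22 in WT tumours (difference 0.38 ± 0.10, adjusted p = 0.596). Its groups were separated, as were those of Sec23b, a COPII coat gene (0.33 ± 0.13). In the list of signal recognition and translocation genes 18 of 19 were positive (median 0.14, 0 with p below 0.05), and in the oligosaccharyltransferase and N-glycan list 20 of 23 (median 0.13). Tusc3, an oligosaccharyltransferase subunit, differed by 0.45 ± 0.17.

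Other folding enzymes were positive in 26 of 34 genes (median 0.10) and other degradation genes in 27 of 29 (median 0.08). Fkbp11, a prolyl isomerase, was at 7.95, 8.33 and 7.64 in Alb/AEG-1 tumours, against 7.59, 7.48 and 7.04 in WT tumours (0.60 ± 0.20, adjusted p = 0.602), with separated groups. Ube2j2, a ubiquitin-conjugating enzyme of the ER, differed by 0.31 ± 0.10. Of 11 other stress transducers 9 were positive (median 0.06), with Creb3l2, a membrane-bound transcription factor, at 0.46 ± 0.15. Of the 146 genes in these 6 lists, 9 (Fkbp11, Erp29, Ube2j2, Edem2, Tusc3, Uap1, Preb, Sec23b and Creb3l2) had an unadjusted p below 0.05, all higher, and 0 passed after adjustment. Their share of 6.16% lies near the 5.1% of the brighter genes, so this count of calls is not a result about these lists. The groups were separated, with Alb/AEG-1 higher, in 7 of 34 folding, 2 of 29 degradation and 2 of 11 transducer genes. They were so in 5 of 19 translocation, 4 of 23 N-glycan and 6 of 30 COPII genes (6.77% of all genes, 9.57% of brighter ones). In the other direction there was 1 degradation and 1 COPII gene (8.31% of all genes). These shares were not tested.

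The integrated stress response, whose list is not limited to genes downstream of PERK, held differences of both signs. Of its 39 measured genes 24 were positive (median 0.08), and 5 higher and 2 lower had an unadjusted p below 0.05, against 3.86% and 4.47% of all genes. The 24 positive genes and the 2 lower ones lie near the background, which for positive differences was 60.4% among brighter genes. Atf4, its central transcription factor, was at 10.15, 9.97 and 10.19 in Alb/AEG-1 tumours, against 9.94, 10.23 and 10.11 in WT tumours (0.01 ± 0.11). Ddit3 (CHOP), a factor of prolonged stress, differed by 0.26 ± 0.24 and had WT replicate 3 second only to Alb/AEG-1 replicate 1. Trib3, an ATF4 target, differed by -0.04 ± 0.15. Asns, asparagine synthetase and another ATF4 target, was at 6.22, 6.02 and 5.16, against 4.75, 5.13 and 4.85 (0.89 ± 0.26, adjusted p = 0.596), and the serine synthesis gene Psph differed by 0.67 ± 0.15 with separated groups. Cytosolic and mitochondrial heat shock genes were negative in 17 of 23 (median -0.07), with 0 at a p below 0.05, and Alb/AEG-1 replicate 1 was the highest array in 3.

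**Figure D4:**
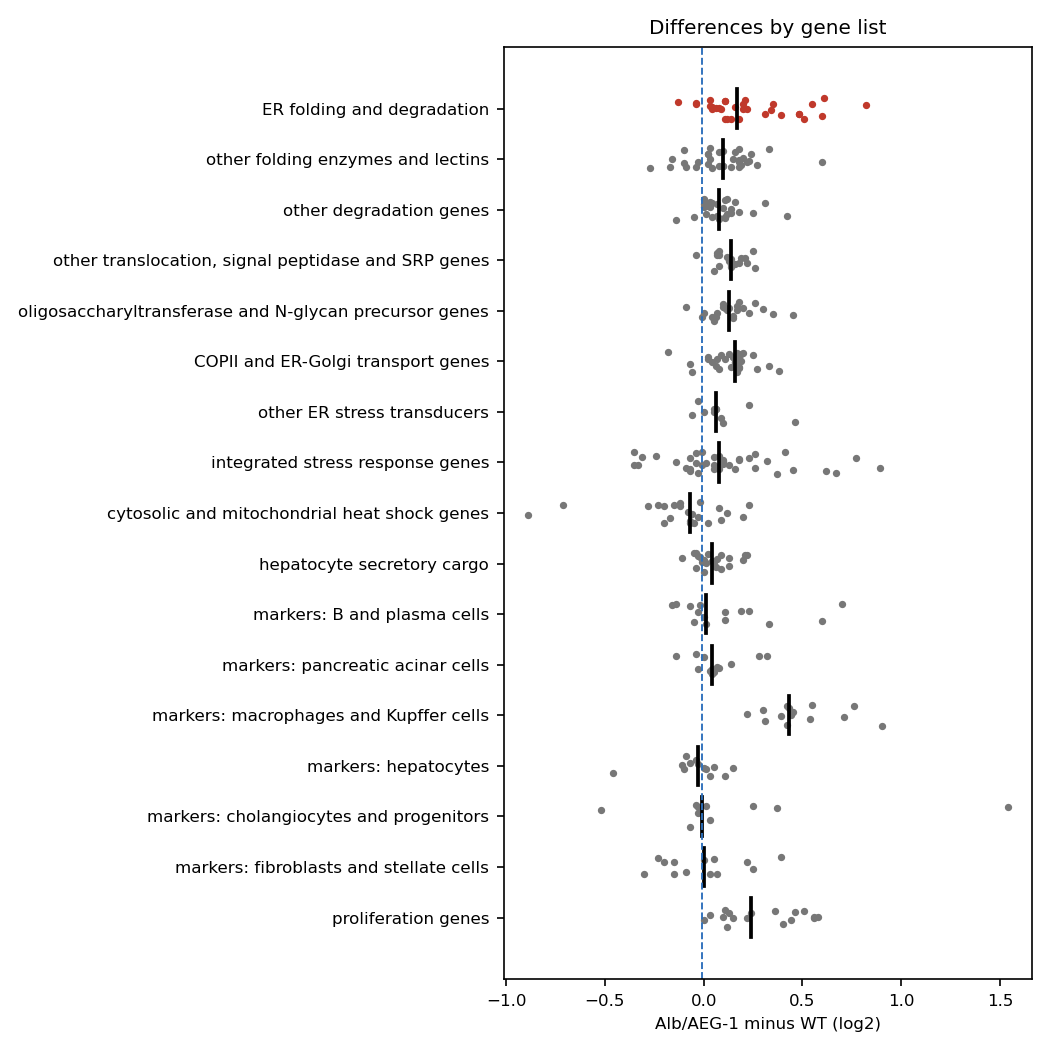
Alb/AEG-1 minus WT differences (log2), 1 point per gene, for the 32 ER folding and degradation genes at the top and for the related gene lists and marker lists beneath; the black bar is the median of a list and the dashed line that of all genes. The medians run from 0.06 to 0.17 in the 7 ER and secretory pathway lists and are 0.43 in macrophage markers and -0.07 in heat shock genes.

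Hepatocyte markers were high, with list means of 13.08 to 13.25 over the Alb/AEG-1 arrays and 13.16 to 13.28 over the WT arrays, and 0 of 13 had an unadjusted p below 0.05. Single markers were less even: Pck1 ran from 10.56 in Alb/AEG-1 replicate 2 to 12.30 in WT replicate 3 (difference -0.46 ± 0.41). Hepatocyte secretory cargo, the load of the folding machinery, differed by a median of 0.04 over 23 genes, many of them near the top of the array's scale. In 5 of these 23 the groups were separated with Alb/AEG-1 higher (6.77% of all genes, 9.57% of brighter ones). In 1 they were separated with Alb/AEG-1 lower (8.31% of all genes). Plasma cells, which carry a large ER, were followed through 15 markers of B and plasma cells. The list mean was 5.55 to 5.77 over the Alb/AEG-1 arrays and 5.44 to 5.61 over the WT arrays. In this list 8 of 15 were positive and 7 negative, with a median of 0.01. Jchain, the joining chain of secreted antibodies, was at 5.25, 5.69 and 4.77, against 4.55, 4.40 and 4.67 (0.70 ± 0.21, adjusted p = 0.596). Jchain and Fkbp11 were the 2 of 15 with an unadjusted limma p below 0.05, against 3.86% of all genes higher at that p. Both were higher in Alb/AEG-1 tumours, with separated groups (6.77% of all genes). Irf4 and Blk, next in the list by p, had negative differences (-0.14 ± 0.09 and -0.16 ± 0.11). Pou2af1 and Tnfrsf17, also in this list, were near the bottom of the scale, at levels of at most 3.04 and 3.89 on any array. They were named after their values were seen. Pancreatic acinar markers were low, with list means of 4.84 to 5.33 over the Alb/AEG-1 arrays and 4.94 to 5.04 over the WT arrays.

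Macrophage and Kupffer cell markers were positive in 14 of 14 (median 0.43), and 5 of 14 were higher at an unadjusted p below 0.05 and 5 were separated, with list means of 7.20, 7.57 and 7.79 in Alb/AEG-1 replicates 1 to 3, against 6.83 to 7.27 over the WT arrays. Proliferation genes were positive in 16 of 17 (median 0.24), and 7 of 17 were higher at that p and 7 were separated, with list means of 5.02, 5.41 and 5.14, against 4.89, 4.93 and 4.88. Over all genes 3.86% were higher at that p and 6.77% were separated with Alb/AEG-1 higher, and among brighter genes 5.1% and 9.57%. In both lists the shares exceed the 4 of 32 and 3 of 32 of the ER genes, a difference that was not tested. In neither list was Alb/AEG-1 replicate 1 the highest array for any gene. Cholangiocyte and fibroblast markers had medians of -0.01 and 0.00. Of the 10 cholangiocyte and progenitor markers, 5 were positive and 5 negative. Prom1 (1.54 ± 0.47) and Cd24a (0.25 ± 0.10) were higher at an unadjusted limma p below 0.05, with separated groups, and 0 were lower. The part of these cells in the ER gene differences was not tested. In bulk tumours, a change in the share of a cell type and a change in RNA per cell cannot be told apart.

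The arrays were alike in overall scale, with medians from 5.82 to 5.84 and pairwise Pearson correlations of 0.987 to 0.993 over probe sets, and their number limits the precision. Mtdh was at 9.57, 9.40 and 9.15 in Alb/AEG-1 tumours, against 9.32, 9.03 and 9.16 in WT tumours (0.20 ± 0.13, adjusted p = 0.677). The labels do not state which species or sequence the transgene carries, so this probe set does not check the genotype. It had the same order over the Alb/AEG-1 arrays as most of the ER genes.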

How the data were processed

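Total RNA from each tumour was labelled as biotinylated cRNA, starting from 5 µg, for Affymetrix mouse arrays, as the labels' protocols describe. The authors deposited log2 expression values, which the submitters' processing notes credit to RMA with no version given. RMA corrects background, makes the arrays' distributions equal and summarizes probes per probe set, so it removes any shift that most genes share. Of 22690 probe sets, 64 controls were left out. Symbols came from the platform annotation, updated by gene ID through RefSeq genes of GRCm38.p6: 20380 probe sets had 1 symbol, 691 several and 1555 none. No probe set with several symbols was used.

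Groups follow the genotype labels, and replicates are numbered in accession order. The labels give each sample its own animal number but say nothing of separate processing, and the p-values measure the spread between these samples. Genotypes were compared in a linear model with moderated variance (limma 3.58.1 under R 4.3.3, 2-sided, 7.53 degrees of freedom), and p-values were adjusted by Benjamini-Hochberg over 22626 probe sets, with a threshold of 0.05. An exact permutation test of 3 against 3 arrays cannot go below 0.1 and was not used. On 10 simulated data sets with 200 changed probe sets of 22626, the fit called 86% of those changed 1 log2 and 98.4% of those changed 2 log2, and 4.18% of calls were false. The simulated noise was independent between probe sets and had the same variance in both genotypes. In the 32 genes the median SD was 0.28 over Alb/AEG-1 and 0.13 over WT arrays, and the largest difference was 0.82 log2. The simulation held no change that small, so its rates do not apply to these genes.

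The 32 genes, the 16 other lists (321 of 372 listed genes measured) and their tests were chosen with earlier results of these data known. All 32 genes are given. From the other lists, the text names genes among the 4 with the smallest p of a list, plus Atf4, Ddit3, Trib3, Asns and Mtdh. Pou2af1 and Tnfrsf17 were named after their values were seen. Fkbp11 stands in both the folding and the plasma cell list. Alternatives were trend and robust moderation, quantile normalization, median centring, array weights, leaving out dim probe sets (mean under 5.83) or those ending in x_at or s_at, the mean of all probe sets or the brightest alone per gene, the animal number range (below 100 or not) as a term, and each array left out. The values needed no log2 transformation, so no other transformation was run. Protein features were planned but not analysed here. Plots were drawn with matplotlib 3.10.9.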

Additional observations from a re-analysis of the deposited data

How the results depend on the processing

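No gene of the list passed an adjusted p of 0.05 under any of the 16 alternatives. The number of list genes at an unadjusted p below 0.05, 4 as reported, was 2 after quantile normalization, 2 when a gene's probe sets were averaged, 2 with a term for the animal number range, and 1 to 14 when single arrays were left out. With probe sets averaged, the calls were Pdia3, higher, and Ern1, which was not among the 4 and was lower (-0.21, unadjusted p = 0.049), while Pdia6, Pdia4 and Eif2ak3 were lost. The number was 1 without Alb/AEG-1 replicate 1 or 2, 14 without Alb/AEG-1 replicate 3 and 2 without WT replicate 2 or 3. The number with separated groups, 3 as reported, was 2 after quantile normalization and 3 to 16 with single arrays left out. It was 16 without Alb/AEG-1 replicate 3 and 6 without WT replicate 1. Groups separate more easily with fewer arrays. Without Alb/AEG-1 replicate 3 the share of all genes separated higher rose from 6.77% to 13.5%, and the share higher at an unadjusted limma p below 0.05 from 3.86% to 4.45%. The shares of all genes were not computed for the other arrays left out. The median difference lay between 0.02 and 0.30 with single arrays left out and between 0.10 and 0.21 otherwise, and 21 to 31 genes were positive over all settings. Over all probe sets, 1 was called as reported, 2 with a trend, 2 with the mean per gene, 0 with the brightest probe set per gene, 0 with the range as a term and 0 to 1 with arrays left out. The sign of 11 genes turned in at least 1 fit with an array left out. Of 319 differences of single genes recomputed with all 6 arrays, 317 moved by less than the replicate SD and 2 (Eif2ak3 and Derl1, with probe sets averaged) by more. Trend and robust moderation change only variances, and leaving out dim probe sets or keeping the brightest alone leaves the same probe sets. Much of this count was therefore fixed in advance. The causes of the changes between settings were not tested. No paired analysis was possible because the labels give no replicate numbers shared between genotypes. Dim probe sets, such as those of Ern1, limit what can be read of the sensors.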

Other observations

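Apart from the 32 genes, 16 measured genes had an ERSE or ERSE-II match in their RefSeq promoter entry. Their median difference between genotypes was 0.05, with 10 of 16 positive. Alb/AEG-1 replicate 1 was the highest array in 6 of them, against 17.3% of all genes and 24.7% of the brighter ones. These 6 were named after their values were seen. They were Derl3, a retrotranslocation gene, Ero1b, an ER oxidase, Alg12, a mannosyltransferase of N-glycan assembly, Nucb1, Pan2 and Ptgdr2. Derl3 was at 7.22, 6.59 and 6.02 in Alb/AEG-1 tumours, against 6.45, 6.50 and 6.54 in WT tumours. It had the order of Alb/AEG-1 arrays seen in most of the 32 genes. Choosing genes highest on replicate 1 favours that order, so it is no separate support. Ero1b was at 9.58, 9.24 and 9.07, against 9.01, 8.99 and 9.20, and Alg12 at 6.40, 6.07 and 5.72, against 6.15, 5.86 and 5.99. In Alb/AEG-1 tumours the same order held in Pan2 (7.39, 7.19 and 7.05). It did not hold in Nucb1 (9.03, 8.84 and 8.89) or Ptgdr2 (5.14, 4.96 and 5.0). The lipid enzyme gene Acacb ran the other way, at 7.23, 7.61 and 8.29, against 8.07, 8.27 and 7.43. Krtcap2, an oligosaccharyltransferase gene also named after its values were seen, was at 9.88 on each Alb/AEG-1 array, against 9.72, 9.87 and 9.72.

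The inducible cytosolic Hsp70 genes did not share the order of the ER chaperones. Hspa1b was at 9.54, 8.76 and 10.06 in Alb/AEG-1 tumours, against 10.15, 9.64 and 11.24 in WT tumours, a difference of -0.89 ± 0.45 log2 (limma, adjusted p = 0.637), and Hspa1a at 5.45, 4.63 and 5.69, against 5.79, 5.35 and 6.76. These are near-identical genes whose probe sets may share signal. The high array in both is WT replicate 3, also the highest WT array for Creld2, Hspa5, Herpud1 and Syvn1.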
